A study of Mus musculus with 6 samples.

Results

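Periostin and 7 other matricellular or adhesive matrix genes were followed in mouse mammary carcinoma cells before and after resistance to axitinib. The 8 genes were Postn, Tgfbi, Sparc, Thbs1, Thbs2, Spp1, Tnc and Fn1, taken by symbol from the 53465 genes of the deposited count table. Postn was picked because it rose strongly in the resistant cells, so it was selected on its log2 fold change, which is given here as a description without a test, and the other 7 genes were listed as matricellular or adhesive matrix genes with earlier results of these data known. RNA sequencing covered 3 libraries of 4T1 parental (P) cells and 3 of 4T1 axitinib-resistant (AxR) cells. 4T1 is a mammary carcinoma line that grows and metastasizes in Balb/c mice, and axitinib inhibits the VEGF receptor kinases. AxR cells came from metastatic lesions (lung or lymph node, which of them is not given for this line) of mice that were given axitinib at 100 mg/kg/day before and after the primary tumor was removed, and they were then cultured with 0.5 μM axitinib for over 2 months. P cells carry no treatment label and are called vehicle-treated by the study, although the growth conditions given for every sample name the drug. Each line is a single cell line, and drug exposure, passage through a mouse and separate culture cannot be told apart in the comparison. Whether the 3 libraries of a line were separate cultures is not stated, so p-values measure only the spread between these libraries, which may be technical.

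Matricellular proteins are secreted into the extracellular matrix but act mainly as signals to cells, through integrins and other surface receptors, rather than as load-bearing fibers. Periostin and its relative TGFBI are built from fasciclin domains, bind collagen and integrins, and are induced by TGF-beta in many tissues. In breast cancer, periostin, tenascin C and osteopontin are best known from the matrix of primary tumors and of metastatic sites, where stromal cells make much of the periostin and tenascin C.

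Among the 3 genes shown next, Postn and Spp1 were higher and Tnc was lower in AxR cells, and the bases before their start sites are given for context. RefSeq's promoter table (build GRCm38.p6) held 6 of the 8 genes, without Thbs1 and Fn1. Each run below is the 250 bases before a start site, 5′ to 3′ on the gene's own strand. None of these bases lies in an exon of the gene in GENCODE M21. Capitals mark matches, on either strand, to 5 strings. The TATA box was searched as TATAAA and in a longer spelling, TATATAA, and the spellings can overlap. The motif of AP-1 was searched as TGANTCA, that of TEAD factors as GGAATG and that of RUNX factors as AACCACA.
Postn, chr3:54360857-54361106, plus strand: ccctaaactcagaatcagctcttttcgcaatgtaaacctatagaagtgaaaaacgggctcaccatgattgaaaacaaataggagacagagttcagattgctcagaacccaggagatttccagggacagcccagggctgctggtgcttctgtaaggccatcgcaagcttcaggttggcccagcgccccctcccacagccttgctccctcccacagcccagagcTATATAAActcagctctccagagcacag
Spp1, chr5:104434861-104435110, plus strand: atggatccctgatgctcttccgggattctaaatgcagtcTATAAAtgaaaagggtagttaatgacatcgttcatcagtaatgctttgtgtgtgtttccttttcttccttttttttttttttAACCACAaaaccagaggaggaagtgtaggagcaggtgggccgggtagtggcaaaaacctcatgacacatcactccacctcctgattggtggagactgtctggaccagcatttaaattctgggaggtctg
Tnc, chr4:64047016-64047265, minus strand: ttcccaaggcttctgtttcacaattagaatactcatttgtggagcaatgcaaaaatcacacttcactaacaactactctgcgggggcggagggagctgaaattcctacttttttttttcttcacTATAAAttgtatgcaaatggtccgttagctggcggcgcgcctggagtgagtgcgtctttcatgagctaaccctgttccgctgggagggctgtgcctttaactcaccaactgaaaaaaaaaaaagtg
The Postn run held both TATA box spellings, overlapping, the longer one from 28 and the shorter one from 26 bases before the start site. The shorter spelling occurred in 12.4% and the longer one in 3.04% of the 32851 promoters of this length in the table. The Spp1 run held AACCACA 129 bases before its start site, a string found in 4.40% of promoters, and TATAAA 211 bases before it. Spp1 also has a later start site in the RefSeq table, at 104436192, whose window held none of the strings and is not shown. The Tnc run held TATAAA 126 bases before the start site. The table gives Tnc a second start site at 64046936, whose window partly overlaps an exon and is not shown, and there the longer spelling began 29 bases and the shorter one 205 bases before the start. These letters were the only matches in the 3 runs, and the AP-1 and TEAD strings occurred in 6.75% and 12.6% of all promoters. A match is a description of the sequence, and no binding was measured.

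Postn (ENSMUSG00000027750.16, chromosome 3 of GRCm38 from 54361109 to 54391037, plus strand) had 176, 168 and 127 estimated counts in P replicates 1 to 3 and 4470, 4219 and 4527 in AxR replicates 1 to 3. Scaled to counts per 1000000 of normalized library size (CPM), these were 10.7, 9.70 and 8.28 CPM in P cells and 284, 269 and 258 CPM in AxR cells. Every AxR library was far above every P library, and the spread within a line was small beside that gap (9.56 ± 1.21 CPM in P and 270.2 ± 13.2 CPM in AxR, SD, n = 3 each). The fitted difference was 28.2-fold, with a 95% interval from 25.0-fold to 31.7-fold, or a log2 fold change of 4.82 (standard error, SE, 0.080). By log2 fold change, Postn ranked 16th among the 9582 genes with at least 10 CPM in the higher line. Its mean passed 10 CPM in AxR cells only. Postn was picked for this change, so the rank is a description, and the interval takes no account of that choice. In P cells the gene was expressed at a low level well above the floor of 3 counts, which was at most 0.196 CPM. The RefSeq table also lists an earlier start site for Postn, at 54359267, whose window held none of the strings searched above and is not shown. The counts are per gene, so use of the sites was not measured. Since these are bulk libraries, more cells that express a gene and more RNA per cell cannot be told apart, for Postn or for any gene below.

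**Figure D1:**
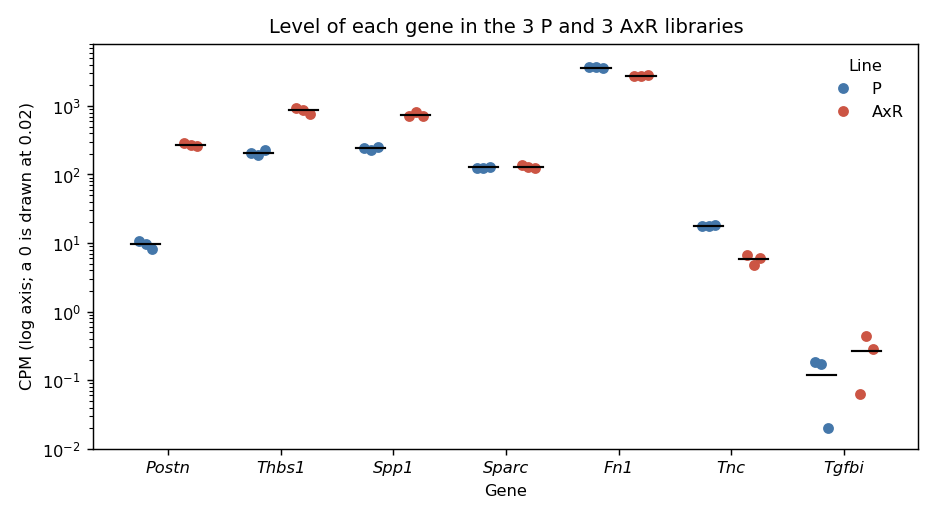
CPM of 7 of the 8 genes in each library on a log axis, with P libraries in blue, AxR libraries in red and black lines at the means (n = 3 each). A count of 0, in 1 P library for Tgfbi, is drawn at 0.02, and Thbs2, with no count, is left out. The lines do not overlap for Postn, Thbs1, Spp1, Fn1 and Tnc, and they overlap for Sparc and Tgfbi.

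Of the 7 genes other than Postn, 5 had enough counts to be tested, and 2 were called higher and 2 lower in AxR cells. A call means a p under 0.05 in the edgeR quasi-likelihood fit after Benjamini-Hochberg adjustment across 13550 genes. Of all genes tested, 32.8% were called higher and 30.8% lower, 63.5% in either direction, so a call by itself sets none of these genes apart. With a log2 fold change of at least 1 as well, 7.99% of all genes were called higher and 4.72% lower, and since these genes were chosen with earlier results known, nothing is read from their sizes against those shares. The libraries of the lines did not overlap for 4 of the 5 genes, against 68.3% of all genes tested.

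Thbs1 encodes thrombospondin 1, an inhibitor of angiogenesis that binds CD47 and can release TGF-beta from its latent form (ENSMUSG00000040152.8, chromosome 2 from 118111876 to 118127133, plus strand). It had 202, 193 and 224 CPM in P replicates 1 to 3 and 947, 886 and 757 CPM in AxR replicates 1 to 3. The AxR libraries spread more than the P libraries but lay well above them, at 863 ± 97.2 against 207 ± 15.7 CPM (SD, n = 3 each). The log2 fold change was 2.06 (SE 0.084, edgeR quasi-likelihood adjusted p = 3.08e-09), a 4.18-fold rise. An RNA on the opposite strand, Gm29233, overlaps Thbs1 and had between 6 and 29 counts in a library, and reads could be divided between them.

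Spp1 encodes osteopontin, a secreted phosphoprotein that binds integrins and CD44 (ENSMUSG00000029304.14, chromosome 5 from 104435118 to 104441050, plus strand). Its level was 244, 228 and 250 CPM in P replicates 1 to 3 and 720, 816 and 711 CPM in AxR replicates 1 to 3. The AxR libraries lay together above the P libraries, at 749 ± 58.2 against 240.3 ± 11.4 CPM (SD, n = 3 each). The log2 fold change was 1.64 (SE 0.060, edgeR quasi-likelihood adjusted p = 8.39e-12), a 3.12-fold rise. Gm42793, annotated within Spp1 on the same strand, had between 2 and 26 counts, and reads could be divided between the pair.

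Tnc encodes tenascin C, a large glycoprotein that weakens cell adhesion to fibronectin (ENSMUSG00000028364.15, chromosome 4 from 63959785 to 64047015, minus strand). It had 17.6, 17.7 and 18.5 CPM in P replicates 1 to 3 and 6.73, 4.72 and 5.97 CPM in AxR replicates 1 to 3. All AxR libraries were below all P libraries, with means of 5.81 ± 1.02 and 17.9 ± 0.485 CPM (SD, n = 3 each). Tnc was 3.07-fold lower in AxR cells, or -1.62 as a log2 fold change (SE 0.12, edgeR quasi-likelihood adjusted p = 1.50e-08).

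Fn1 encodes fibronectin, the adhesive matrix protein to which tenascin C, periostin and thrombospondin 1 bind (ENSMUSG00000026193.15, chromosome 1 from 71585520 to 71653200, minus strand). It was the most abundant of the 8 genes by CPM in each library, with 3677, 3632 and 3551 CPM in P replicates 1 to 3 and 2720, 2694 and 2839 CPM in AxR replicates 1 to 3. The fall was small and larger than the spread, from 3620.0 ± 63.8 to 2751 ± 77.5 CPM (SD, n = 3 each). The log2 fold change was -0.40 (SE 0.044, edgeR quasi-likelihood adjusted p = 1.45e-06). The counts are per gene, so splice forms of Fn1 and Tnc could not be told apart.

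Sparc encodes a collagen-binding glycoprotein also called osteonectin (ENSMUSG00000018593.13, chromosome 11 from 55394500 to 55423183, minus strand). It had 126, 126 and 129 CPM in P replicates 1 to 3 and 136, 129 and 124 CPM in AxR replicates 1 to 3. The libraries of the lines overlapped, and the log2 fold change of 0.03 (SE 0.052, edgeR quasi-likelihood adjusted p = 0.642) had a 95% interval from -0.08 to 0.14. A change of more than 1.10-fold in either direction lies outside that interval. The exact permutation test on log2(CPM + 0.5) gave a two-sided p of 0.6 for Sparc and 0.1 for Thbs1, Spp1, Tnc and Fn1, the smallest p that 3 libraries against 3 allow.

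Tgfbi and Thbs2 could not be compared at this depth. Tgfbi, the fasciclin-domain relative of periostin (ENSMUSG00000035493.10, chromosome 13 from 56609523 to 56639562, plus strand), had 3, 3 and 0 counts in P replicates 1 to 3 and 1, 7 and 5 in AxR replicates 1 to 3, and the lines overlapped. Thbs2, which encodes thrombospondin 2 (ENSMUSG00000023885.8, chromosome 17 from 14665500 to 14694235, minus strand), had 0 counts in all 6 libraries, so it may lie anywhere below 0.196 CPM, the highest floor of 3 counts. Within each related pair, Postn with Tgfbi and Thbs1 with Thbs2, the first gene was at 270.2 or 863 CPM in AxR cells and the other was near or at 0.

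**Figure D2:**
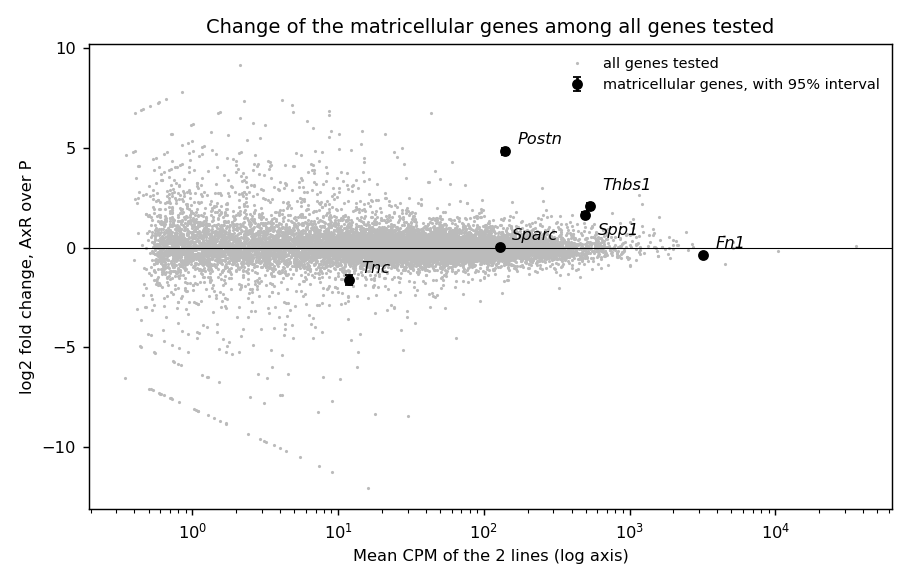
Log2 fold change of AxR over P cells against the mean CPM of the lines (log axis) for the 13550 genes tested, in gray, with Postn, Thbs1, Spp1, Sparc, Fn1 and Tnc in black with their 95% intervals. Postn at 4.82 lies high among genes of its abundance, Thbs1 and Spp1 lie at 2.06 and 1.64, Sparc lies at 0.03, and Fn1 and Tnc lie at -0.40 and -1.62.

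For levels between genes, CPM was divided by the length of the longest protein-coding transcript in kb. In P cells the order was Fn1 at 435 ± 7.67, Spp1 at 159 ± 7.56, Sparc at 55.2 ± 0.810 and Thbs1 at 35.3 ± 2.69 CPM per kb (SD, n = 3). Postn at 2.98 ± 0.379 and Tnc at 2.52 ± 0.0682 CPM per kb (SD, n = 3) came next and did not differ beyond their spread. In AxR cells Spp1 came first at 497 ± 38.6 CPM per kb, above Fn1 at 331 ± 9.32 CPM per kb (SD, n = 3 each). Thbs1 at 148 ± 16.6, Postn at 84.3 ± 4.12 and Sparc at 56.3 ± 2.62 CPM per kb followed, and Tnc was at 0.817 ± 0.143 CPM per kb (SD, n = 3 each). No libraries of neighbors in the AxR order overlapped. The order depends on the length used, because all annotated exons of Postn sum to 8702 bases and its longest protein-coding transcript to 3205. Per kb of all annotated exons together, a choice made after the data were seen, Postn was at 31.0 and Sparc at 34.2 in AxR cells, and in P cells Postn was at 1.10, Tnc at 2.30, Sparc at 33.5 and Thbs1 at 34.0.

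**Figure D3:**
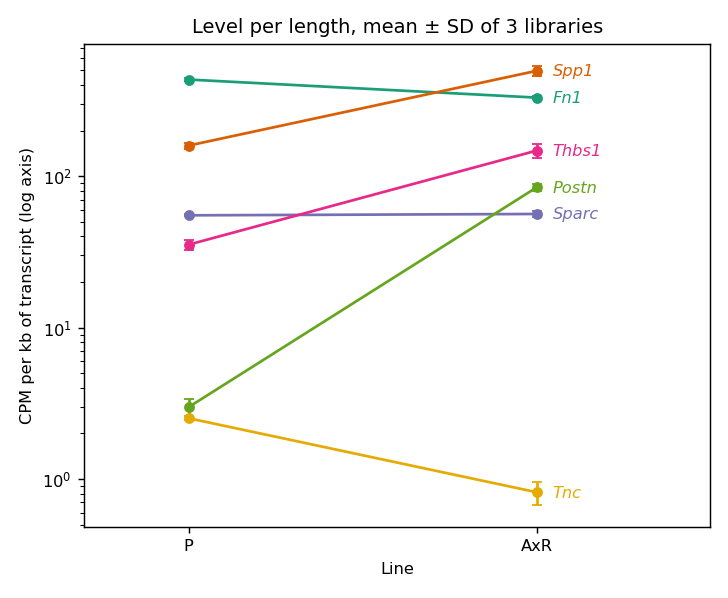
CPM per kb of the longest protein-coding transcript in P and AxR cells, on a log axis, as mean ± SD of 3 libraries for the 6 genes tested. Postn runs from 2.98, beside Tnc, to 84.3, above Sparc, and the lines of Spp1 and Fn1 cross.

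Together the 8 genes held between 0.414% and 0.434% of all counts in P libraries and between 0.464% and 0.477% in AxR libraries. Their summed level was 4180.1 to 4277 CPM in P libraries and 4695 to 4813 CPM in AxR libraries, without overlap. The make-up shifted more than the sum. Fn1 held 86.0%, 86.3% and 84.9% of these counts in P replicates 1 to 3 and 56.5%, 56.1% and 60.5% in AxR replicates 1 to 3. Thbs1 held 4.59% to 5.36% in P and 16.1% to 19.7% in AxR libraries, and Spp1 held 5.41% to 5.97% in P and 15.0% to 17.0% in AxR libraries. Postn went from between 0.198% and 0.250% in P libraries to between 5.49% and 5.90% in AxR libraries. These shares follow from the changes already given and are not a separate test.

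**Figure D4:**
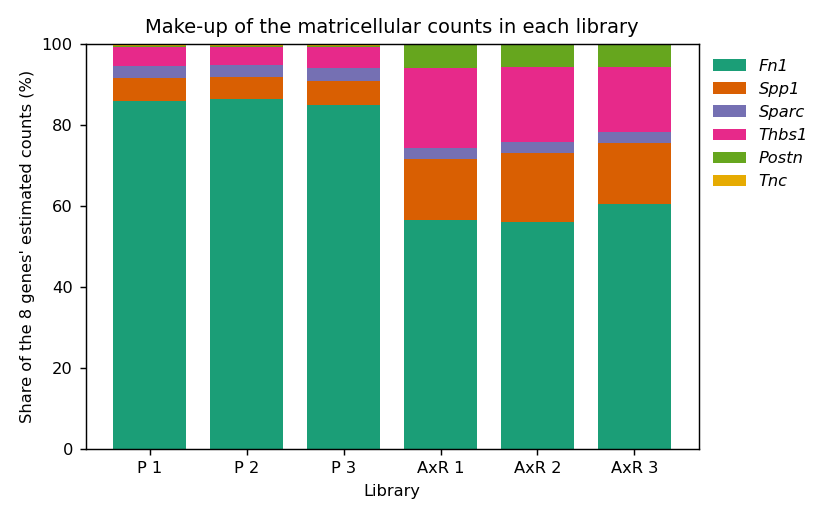
Share of the 8 genes' estimated counts held by each gene, in percent, in each of the 6 libraries. Fn1 holds between 84.9% and 86.3% in P libraries and between 56.1% and 60.5% in AxR libraries, where Thbs1, Spp1 and Postn take larger shares.

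A list of 34 other matricellular genes, such as the CCN proteins, fibulins, SMOC proteins and matrilins, was largely silent in these cells. Of the 34, 19 had at most 3 counts in every library, 5 of them with no count at all, and 11 were tested. Of these 11, 8 were called higher and 1 lower in AxR cells, beside 32.8% and 30.8% of all genes tested. Among the 8, Matn2 rose by only 0.25 on the log2 scale, and its libraries overlapped between the lines. Matn2 lost its call under an alternative fit, DESeq2, and in fits that dropped either P replicate 1 or 2, or AxR replicate 2. The list's median log2 fold change was 0.79, and that of all genes tested was 0.0058. Ccn5 and Smoc1, at 3 or fewer counts in each P library, passed the filter through AxR cells alone, and with at least 10 counts in every library 6 genes were higher, 1 was lower and the median was 0.61. Ccn1, a secreted target of YAP that binds integrins, had 136, 164 and 149 CPM in P replicates 1 to 3 and 341, 307 and 354 CPM in AxR replicates 1 to 3, or 1.16 as a log2 fold change (SE 0.070, edgeR quasi-likelihood adjusted p = 6.19e-09). Its relatives Ccn2 and Ccn4 rose by 0.48 and 0.80 on the log2 scale, from 147 ± 9.34 to 205 ± 12.2 CPM and from 33.8 ± 1.65 to 58.8 ± 8.20 CPM (SD, n = 3 each). Ccn5 had at most 3 counts in each P library and 60, 74 and 63 counts in AxR replicates 1 to 3, a fitted 26.9-fold rise with a 95% interval from 15.9-fold to 45.5-fold. Against a floor of 3 counts per library the rise of Ccn5 was 22.0-fold. Both sizes are descriptions, since the gene passed the filter through AxR cells alone. Efemp2, a fibulin needed for elastic fibers, rose from 39.8 ± 0.788 to 66.6 ± 4.27 CPM, while Fbln2 fell from 451 ± 25.7 to 238 ± 1.27 CPM (SD, n = 3 each). Fbln2 was the only gene called lower. Dmp1, a bone matrix gene near Spp1, had a log2 fold change of -0.59 (edgeR quasi-likelihood adjusted p = 0.0856), and it was called lower without P replicate 2 (log2 fold change -0.88, edgeR quasi-likelihood adjusted p = 0.00237).

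Receptors and binding partners of these proteins were called at shares near those of all genes. Of 24 genes on this list, 17 were tested, with 7 called higher and 6 lower, where 32.8% and 30.8% of all genes tested were. The median log2 fold change of 0.30 depends on the filter and on single libraries, being 0.080 with at least 10 counts in every library, 0.040 without P replicate 2, 0.16 without AxR replicate 1 and 0.18 without AxR replicate 2. Cd47, a signaling receptor of thrombospondin 1, had 546, 478 and 514 CPM in P replicates 1 to 3 and 1220.2, 1253 and 1173 CPM in AxR replicates 1 to 3, a log2 fold change of 1.24. Lrp1, the endocytic receptor that clears it, went from 351 ± 11.1 to 1172 ± 44.9 CPM (SD, n = 3 each), or 1.74 as a log2 fold change (SE 0.049, edgeR quasi-likelihood adjusted p = 5.21e-13). For Cd47 the edgeR quasi-likelihood adjusted p was 4.88e-11, and for neither gene did the lines overlap. Calr, the co-receptor of Lrp1 for thrombospondin, rose by 0.30 on the log2 scale, and the syndecan Sdc3 by 1.12.

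Integrin subunits did not move as a block. Itgav, shared by the integrins that bind periostin, osteopontin and fibronectin, fell from 421 ± 18.1 to 303 ± 25.0 CPM, and Itgb1 from 1788 ± 15.1 to 1342 ± 56.4 CPM (SD, n = 3 each), log2 fold changes of -0.47 and -0.41. Itgb5, which pairs with Itgav to bind periostin and osteopontin, went up from 119 ± 1.10 to 195 ± 2.47 CPM, and Itga5, which pairs with Itgb1 to bind fibronectin, from 29.3 ± 2.72 to 44.0 ± 4.00 CPM (SD, n = 3 each). Itgb3 was at 0.682 ± 0.258 CPM in P and 0.864 ± 0.169 CPM in AxR cells (SD, n = 3 each), and it did not pass (edgeR quasi-likelihood adjusted p = 0.432). Cd44, a receptor for osteopontin, and Sdc4, a co-receptor for fibronectin, fell by 0.59 and 0.68 on the log2 scale. Stab1, a scavenger receptor for SPARC that also has fasciclin domains, fell from 14.1 ± 0.770 to 4.79 ± 0.650 CPM (SD, n = 3 each), or -1.55 as a log2 fold change.

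**Figure D5:**
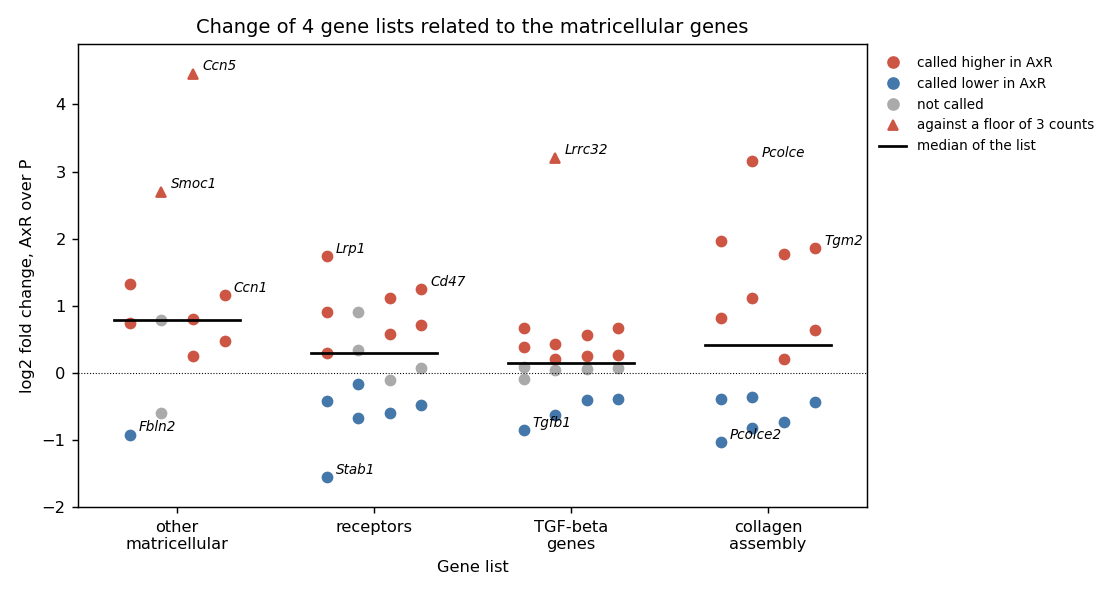
Log2 fold change of AxR over P cells for the tested genes of 4 lists, with genes called higher in red, called lower in blue and not called in gray, and black bars at the medians (0.79, 0.30, 0.15 and 0.42 from left to right). Triangles are genes at or under 3 counts in every P library, drawn against a floor of 3 counts per library. Ccn5, Lrp1 and Pcolce are the highest points of their lists, and Fbln2, Stab1, Tgfb1 and Pcolce2 the lowest.

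Because periostin and TGFBI are known targets of TGF-beta, 18 genes of that pathway were listed, and all 18 were tested. Of these, 9 were called higher and 4 lower, where 63.5% of all genes were called in either direction. The median log2 fold change was 0.15, and it was 0.092 with at least 10 counts in every library, which leaves out Lrrc32, a gene that passed the filter through AxR cells alone. Among the ligands, Tgfb1 fell from 30.1 ± 1.18 to 16.6 ± 0.637 CPM, Tgfb3 rose from 37.8 ± 3.05 to 60.3 ± 2.51 CPM, and Tgfb2 was at 21.7 ± 1.03 and 20.5 ± 0.830 CPM in P and AxR cells (SD, n = 3 each). Tgfbr1 had a log2 fold change of 0.25, with overlapping lines, and its call was lost without P replicate 2 (log2 fold change 0.16), AxR replicate 1 (0.22) or AxR replicate 2 (0.22). Tgfbr2, the receptor that binds the ligand, had a log2 fold change of 0.09 (edgeR quasi-likelihood adjusted p = 0.126). Of the signal carriers, Smad3 fell by 0.39 on the log2 scale, and Smad2 and Smad4 rose by 0.27 and 0.57. Smad7, an inhibitor of the pathway that TGF-beta itself induces, rose by 0.43 on the log2 scale. Furin, which cleaves the precursor of the ligands, and Ltbp4, which ties them to the matrix, fell by 0.40 and 0.62. Lrrc32, a surface anchor for latent TGF-beta, had 0 counts in the P libraries and 29, 24 and 30 counts in AxR replicates 1 to 3, a rise of at least 9.20-fold against a floor of 3 counts per library.

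Periostin binds BMP1 and takes part in collagen cross-linking, and the genes of collagen assembly went in both directions. Of 24 genes listed, 14 were tested, and each of the 14 was called, 8 higher and 6 lower, beside 63.5% of all genes in either direction. Among the 8, P4ha2 rose by 0.63 on the log2 scale, and an alternative fit, DESeq2, did not call it. Nor was P4ha2 called after dropping AxR replicate 2 or either of P replicates 1 and 2. P4ha3, also called higher, had only 7, 11 and 9 counts in P replicates 1 to 3, and a stricter count filter removes it. The median log2 fold change was 0.42, but 0.21 with at least 10 counts in every library and 0.75 with no filter on low counts. Pcolce, which enhances procollagen cleavage by BMP1, had 11.3, 11.5 and 12.4 CPM in P replicates 1 to 3 and 99.3, 112 and 104 CPM in AxR replicates 1 to 3, or 3.16 as a log2 fold change (SE 0.072, edgeR quasi-likelihood adjusted p = 7.53e-14). Its relative Pcolce2 went the other way, from 60.1 ± 4.44 to 29.4 ± 1.61 CPM (SD, n = 3 each), and Bmp1 itself fell by 0.43 on the log2 scale. Tgm2, a transglutaminase that cross-links fibronectin, rose from 42.9 ± 1.48 to 156 ± 3.55 CPM, and the lysyl oxidase relatives Loxl3 and Loxl4 rose from 11.0 ± 0.962 to 37.4 ± 5.95 CPM and from 153 ± 7.79 to 329 ± 18.0 CPM (SD, n = 3 each). Lox had at most 2 counts in any library. The fibrillar collagens themselves were scarce, since Col1a1 had between 3 and 14 counts in a library, Col1a2 had at most 5, and Col3a1 had 0. Col5a1 was the only fibrillar collagen of the list with enough counts to be tested, and it fell from 42.0 ± 1.04 to 25.4 ± 0.830 CPM (SD, n = 3 each).

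The 5 tested genes whose pattern was most like that of Postn were Ifi44, Col6a1, Zbp1, Gm4907 and Apol9a. Likeness was the Euclidean distance between log2 CPM profiles over the 6 libraries, each centered on its own mean, and the distances ran from 0.400 for Ifi44 to 0.591 for Apol9a. Col6a1, a chain of collagen VI, had 2.37, 1.91 and 2.09 CPM in P replicates 1 to 3 and 46.7, 50.4 and 47.8 CPM in AxR replicates 1 to 3, a log2 fold change of 4.51. Ifi44 and Apol9a, both known as interferon-induced genes, had means of 0.772 and 1.67 CPM in P cells and 28.1 and 53.5 CPM in AxR cells. Zbp1 had 1 count in each P library and Gm4907 had 0, and they reached means of 5.12 and 4.25 CPM in AxR cells. For Gm4907 that was at least 23.1-fold higher, against a floor of 3 counts per library. Both genes passed the filter through AxR cells alone, and their distances rest on the prior count of 2 added before taking log2 CPM. With libraries of 2 lines only, the measure finds genes of a similar rise, and Postn was chosen for that rise.

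The libraries held between 15495260 and 17294525 estimated counts, which sets the precision of the low values above. Both lines had epithelial transcripts, since all 10 epithelial markers were tested, with summed levels of 2196 to 2424 CPM in P and 3254 to 3425 CPM in AxR libraries. Of these markers 6 were called higher and 4 lower, beside 32.8% and 30.8% of all genes tested. Their log2 fold changes ran from -3.43 to 2.45, so the sum does not describe each marker. Of 12 fibroblast markers, for the cells best known to make periostin, Pdgfra was the only gene tested, Col3a1, Lum, Thy1 and Tcf21 had no count, and the summed level was 22.5 to 24.2 CPM in P and 10.5 to 12.0 CPM in AxR libraries. That sum follows Pdgfra, and the part of fibroblast markers in the level of Postn was not tested. Of 10 leukocyte markers, Cd68 and Cd14 were tested and called higher, Tyrobp, Fcer1g and Cd3e had no count, and the sum was 6.14 to 8.28 CPM in P and 16.6 to 17.5 CPM in AxR libraries. None of 7 endothelial markers was tested, with sums of 0.456 to 0.693 CPM in P and 0.191 to 0.383 CPM in AxR libraries and no count of Kdr or Emcn. Of 6 lung epithelial markers, Foxj1 was tested and called higher, Scgb1a1 had no count, and the sums were 0.577 to 1.15 CPM in P and 4.15 to 4.21 CPM in AxR libraries. The part of the leukocyte and lung markers in the results was not tested.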

How the data were processed

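RNA from 3 P and 3 AxR libraries was prepared by the authors with a stranded poly(A) kit. The authors deposited estimated counts per gene, made with RSEM 1.3.1 after alignment by STAR 2.6.0a (build GRCm38) and not yet filtered or normalized. RSEM splits reads that fit several genes, and between 10.3% and 10.7% of a library's values were not whole. The strand setting used for counting is not given in the sources used here. Here the counts were rounded, filtered with filterByExpr, scaled by upper quartile as in the study, and fitted with the robust quasi-likelihood model of edgeR 4.0.16 (R 4.3.3) with line as the only term. The 13550 genes kept held 99.9% of counts, and factors lay between 0.966 and 1.02. The code was tested on simulated data. Intervals are 95% intervals of the fit, and the floor of 3 counts covers counting error only. Symbols, positions and lengths were those of GENCODE M21 (same build), which matched 53360 identifiers.

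The 8 genes and the gene lists were chosen with earlier results of these data known. Named genes are the 8 genes, the 5 closest in pattern to Postn and, per list, up to 4 in each direction with an adjusted p under 0.05, a log2 fold change of at least 1 either way and at least 10 CPM. Other names were chosen after their values were seen, and a listed gene is not reported here by name. Alternatives were TMM, library size only, DESeq2 1.42.0, limma-voom (limma 3.58.1), other filters, a replicate block, each library left out, a fold threshold and a pseudocount of 2. All libraries were kept. No replicate pair was a duplicate within sampling noise: chi-square divided by degrees of freedom was 5.06 to 8.42 for 5 pairs and 19.4 for AxR replicates 1 and 3.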

Additional observations from a re-analysis of the deposited data

How the results depend on the processing

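The 2 genes called higher and 2 called lower among the 7 other than Postn kept those counts under every alternative fit. Leaving out each library in turn, the log2 fold change of Postn lay between 4.73 and 4.91, that of Thbs1 between 2.00 and 2.15, of Spp1 between 1.58 and 1.68, of Tnc between -1.73 and -1.49 and of Fn1 between -0.42 and -0.38. Sparc lay between -0.0012 and 0.064 and never passed, and the negative value came without AxR replicate 1. Requiring a log2 fold change of at least 1 left 1083 genes higher and 640 lower, or 7.99% and 4.72% of all genes tested. It left 1 of the 2 lower members (Tnc). Of the 11 other matricellular genes tested, 4 were higher and 0 lower (1 before). Ccn5 and Smoc1, among those 4, passed the filter through AxR cells alone. Of the 17 receptors tested, 3 were higher and 1 lower. Of the 18 TGF-beta genes tested, 1 was higher and 0 lower (4 before). The 1 higher gene was Lrrc32, which also passed the filter through AxR cells alone. Of the 14 collagen assembly genes tested, 5 were higher and 1 lower. These counts fell by the added criterion alone. The 0 counts are by edgeR's quasi-likelihood test. Without a low-count filter 10 other matricellular genes were higher, Tnxb and Spock2 being added, and 3 were lower, Dmp1 and Fbln1 being added. With each library left out, 7 to 9 were higher and 1 to 2 lower. With a pseudocount of 2 in place of 0.5, the difference of mean log2 levels was 4.56 for Postn and -1.36 for Tnc, since a larger pseudocount shrinks low levels. Same-numbered P and AxR libraries did not deviate together (correlations from -0.0217 to -0.0061), so the numbers were not taken as pairs. With the replicate block 4304 genes were higher and 4023 lower, and Postn, given without a test, had a log2 fold change of 4.82. No call on the 5 tested genes other than Postn changed. The other fits called 3962 to 4761 genes higher and 3913 to 4337 lower, and without each library in turn the counts were 4124 to 4499 and 3782 to 4112. At this depth neither Tgfbi nor Thbs2 could be compared.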

Other observations

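The genes beside Postn on chromosome 3 changed less than Postn, which was itself picked for its rise. The 5 tested genes on each side, spread over up to 1262109 bases, had log2 fold changes from -0.08 (Supt20) to 0.60 (Gm5641) with a median of 0.33, where the 717 tested genes of the chromosome had a median of 0.32 and Postn had 4.82. The nearest tested gene, Gm5641, starts 120329 bases from the start of Postn and went from 65.5 to 99.1 CPM.

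Around Spp1 on chromosome 5, most neighbors were lower in AxR cells while Spp1 was higher. The 10 nearest tested genes had a median log2 fold change of -0.49, with Aff1 at -0.41, Nudt9 at -0.57 and Klhl8 at -0.66, and those of Hsd17b11 and Gm42793 were 2.26 and 2.73. Gm42793 lies within Spp1 and can share its reads. Around Sparc on chromosome 11, which did not pass the test, the 10 nearest tested genes lay between 0.06 and 2.87 with a median of 0.65. The highest was Fat2, with a mean of 0.123 CPM in P cells, below the floor, and 0.942 CPM in AxR cells. Others were the lysosomal cofactor gene Gm2a at 1.40 and the stress granule gene G3bp1 at 0.55. The neighbors of Fn1 had a median of -0.29, as did chromosome 1, and Fn1 itself was at -0.40. These values describe position only, and no DNA was measured.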
